A study of Mus musculus with 84 samples.

Results

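The genes that release fatty acid from stored triglyceride were followed in liver and inguinal adipose tissue (IAT) of diabetic db/db mice. The set holds 7 genes: Pnpla2, Pnpla3, Lipe, Mgll, Abhd5, G0s2 and Lipa. They were picked by name out of 18620 named genes of the array, by a rule that uses no measured value, though with earlier results of these data known. Of the 7 genes, 6 were found under these names, and Lipa, listed under the older symbol Lip1, was found by its transcript accession. The array carries 12 probes for them among 41174 probes, and each gene is represented here by its brightest probe tested in both tissues.

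Breakdown of a triglyceride proceeds in steps, each with its own enzyme. Adipose triglyceride lipase, the product of Pnpla2, removes the first fatty acid, with Abhd5 (CGI-58) as its coactivator and G0s2 as its inhibitor. Hormone-sensitive lipase (Lipe) acts mainly on the diglyceride that remains, and monoglyceride lipase (Mgll) releases the last fatty acid from glycerol. Pnpla3 is a relative of Pnpla2 that sits on lipid droplets and follows carbohydrate feeding in liver, and Lipa encodes the acid lipase of the lysosome. In adipose tissue this route supplies fatty acid to the rest of the body during fasting, and in liver it draws on the fat of the hepatocyte.

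All mice were males of the strain BKS Cg-m+/+ Leprdb/J, which lack a working leptin receptor, and were 8 weeks old on arrival. They received rosiglitazone (RSG), an agonist of the nuclear receptor PPARγ, or a compound named only S compound, by mouth for 18 days at 28, 84 or 280 µmol/kg. RNA of liver and of IAT from 6 mice per group was measured, which gives 72 tissue samples in 12 groups. Each sample was hybridised on 2 arrays, with the dyes exchanged, against RNA pooled per tissue from 6 untreated mice of that strain, so every group, and the pool, carries the db/db genotype. A pool is a single control sample, and how much untreated mice differ from each other enters no test below. Every value is log2 of treated mouse over pool unless stated otherwise. A gene is said to rise or fall where its adjusted p was under 0.05 in limma, with Benjamini-Hochberg adjustment over all sequences tested in that tissue (26024 in liver and 31423 in IAT).

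The probes reported here lie, in the mm8 coordinates of the array, at chr7:141311351-141311410 for Pnpla2, chr9:122216780-122216839 for Abhd5, chr1:194973455-194973514 for G0s2, chr7:25089715-25091968 for Lipe, chr6:88793933-88793992 for Mgll, chr15:84017159-84017218 for Pnpla3 and chr19:34559224-34559283 for Lipa. Those of G0s2, Lipe and Lipa are on the minus strand. Pnpla2, Lipe and Abhd5 have 1 further probe each and Mgll has 2.

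The dye-exchanged arrays of a sample correlated with 0.718 to 0.949 in liver and 0.821 to 0.955 in IAT, and 11 of the 12 probes stood well above background in every channel of both tissues. By hepatocyte markers tissue identity followed the labels, with sums of 1240 to 1800 in treated liver against 3.09 to 31.1 in treated IAT (processed signal over the 75th percentile of the array). Summed adipocyte markers did not separate the treated tissues, with 531 to 1070 in IAT and 68.6 to 667 in liver. In the pool channel they were 540 to 769 in IAT and 10.3 to 24.2 in liver. Some tissue samples stood apart from the other mice of their group. The mean correlation with them was 0.405 for replicate 5 of IAT at 28 µmol/kg RSG, and 0.505 and 0.596 for replicate 2 of liver and of IAT at 280 µmol/kg RSG. Results that rest on these samples are given with and without them, except the nearest genes by correlation. Of the 55 calls of members against the pool, 43 were in groups scanned on more than 1 day, and none of their 97 day means had the other sign. The other 12 calls have no value by day. Day means are parts of groups that had already been called, so a shared sign was likely from the outset. It does not show that a call is free of scan day.

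Repeated measurements of liver RNA, 6 for RSG and 6 for S compound at 28 µmol/kg, show the error of the method, and the labels do not say from which mouse the RNA came. Their SD for the 7 genes was 0.01 to 0.14, below the SD between mice in 13 of 14 cases, the exception being Lipa with S compound (0.14 against 0.09). However, for Pnpla2, Pnpla3, G0s2 and Lipa all 6 repeats lay outside the range of the 6 mice in both groups. Pnpla3 averaged 1.85 in the repeats of the RSG group, where the mice ran from 2.17 to 3.55, and 1.27 in those of S compound, where the mice ran from 2.42 to 3.30. G0s2 averaged 0.92 and 1.12 in the repeats, above the highest mouse of each group (0.82 and 0.72). Pnpla2 averaged 0.26 and 0.07 in them, below the lowest mouse of each group (0.36 and 0.12). For Lipa the repeats averaged 0.29 and 0.05, where the lowest mice stood at 0.43 and 0.41. Those of Lipa with S compound ran from -0.13 to 0.16, which includes the level of the pool. The repeats were scanned on other days than the mice, and the part of the scan day in this shift was not tested. The repeats enter no comparison.

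**Figure D1:**
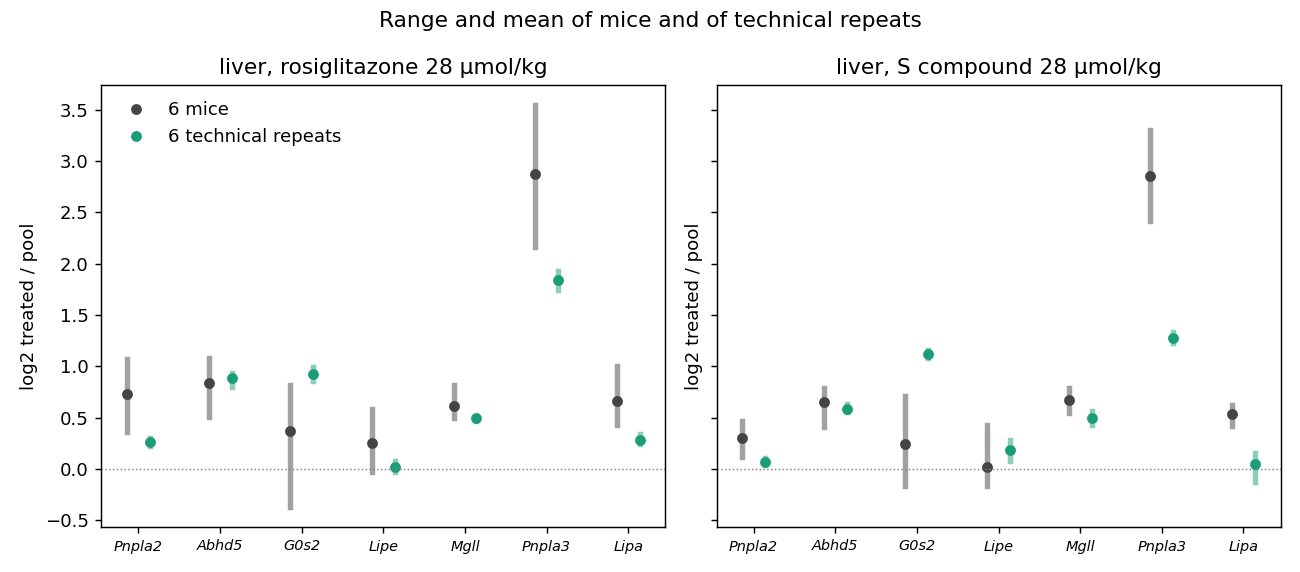
Log2 ratio to the pool (y axis) of the 7 genes in liver at 28 µmol/kg RSG and S compound, for the 6 mice of each group and the 6 technical repeats, with points for means and bars from lowest to highest value. Repeats lie close together, with SDs of 0.01 to 0.14, and for Pnpla2, Pnpla3, G0s2 and Lipa they fall outside the range of the mice.

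The pool shows the level of each gene in untreated mice. Taken within 1 probe, and relative to the 75th percentile of its array, the signal of the pool was higher in IAT than in liver for 5 genes. Pnpla3 stood 28.6-fold higher in IAT (median log2 signal of 4.51 against -0.33), and Lipe stood 22.2-fold higher (3.32 against -1.15). For Pnpla2, Mgll and Abhd5 the medians were 5.92-fold, 2.17-fold and 1.65-fold higher in IAT. G0s2 was at 0.662 and Lipa at 0.289 of its liver signal in IAT. Each tissue has 1 pool, so its 36 values are repeated measurements, and their range is not the spread between untreated mice. These ranges did not overlap between the tissues for any of the 7 genes. The share of all sequences for which this holds was not counted. Liver and IAT also differ in the number of expressed probes and hence in the percentile used.

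**Figure D2:**
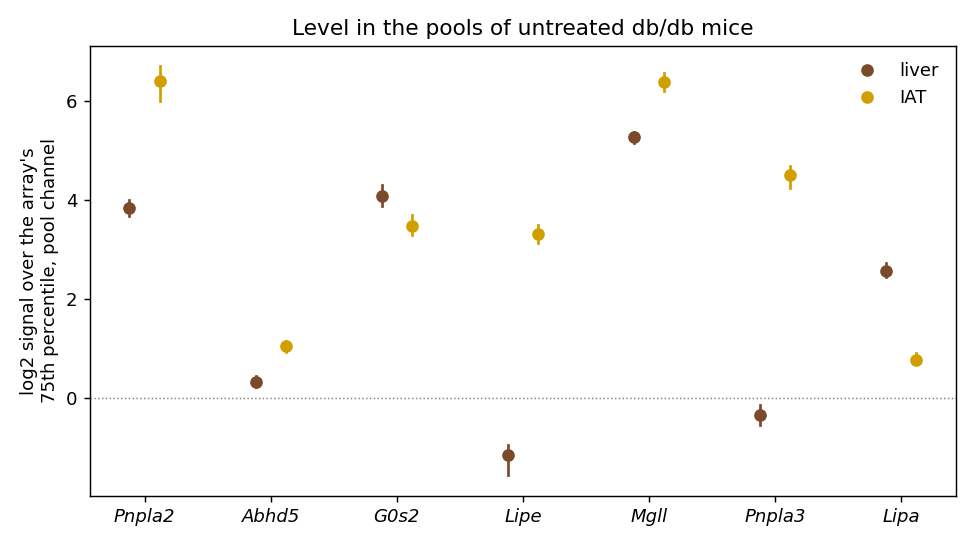
Level of each gene in the untreated pool, as log2 of processed signal over the 75th percentile of the array (y axis), in liver and IAT, with the median and the lowest and highest of 36 samples. Levels are to be compared between tissues within a gene only. Pnpla3 and Lipe show the widest gap between tissues, and G0s2 and Lipa lie higher in liver.

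In liver, RSG raised 6 of the 7 genes at each dose, against 58.5% of all sequences called in either direction at 28 µmol/kg, 56.5% at 84 and 50.9% at 280 µmol/kg. The gene that did not pass was G0s2 each time. S compound raised 5 genes at 28 µmol/kg, where 51.3% of sequences were called, and the same number at 84 µmol/kg, where 54.3% were called. Lipe and G0s2 did not pass there. At 280 µmol/kg, with 65.8% of sequences called, S compound raised 5 genes and lowered G0s2. Calls of higher sequences made up 21.4 to 27.9% of all tested in these 6 comparisons. The median over the 7 genes was 0.40 to 0.90, and that over all sequences -0.05 to -0.02. In bulk tissue, a change in the number of cells of a type and a change of RNA per cell cannot be told apart.

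Pnpla2 rose in liver in all 6 groups. With RSG its values ran from 0.36 to 1.07 (median 0.70) at 28 µmol/kg, from 0.68 to 1.00 (median 0.73) at 84 µmol/kg and from 0.47 to 1.01 (median 0.76) at 280 µmol/kg. With S compound they ran from 0.12 to 0.47 (median 0.31), from 0.10 to 0.68 (median 0.55) and from 0.50 to 1.59 (median 0.75). All 36 mice lay above the pool, and the groups of S compound at 28 and 280 µmol/kg did not overlap. The mean folds were 1.66, 1.75 and 1.66 with RSG and 1.23, 1.39 and 1.86 with S compound, and the weakest adjusted p among them was 0.011, for S compound at 28 µmol/kg. A further probe of Pnpla2 gave 0.28 in that group and missed the threshold (adjusted p = 0.064).

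Abhd5, the coactivator of the Pnpla2 product, rose in liver in all 6 groups as well. The lowest, median and highest values with RSG were 0.51, 0.86 and 1.08 at 28 µmol/kg, 0.52, 1.01 and 1.14 at 84 µmol/kg, and 0.29, 0.95 and 1.08 at 280 µmol/kg. With S compound they were 0.41, 0.68 and 0.79, then 0.40, 0.82 and 0.99, then 0.92, 1.04 and 1.08. All 36 mice lay above the pool. The mean was 1.82-fold the pool at 280 µmol/kg RSG (0.87 ± 0.29, n = 6, adjusted p = 1.5e-10), and 2.02-fold at 280 µmol/kg S compound (1.02 ± 0.06, n = 6, adjusted p = 8.3e-13). The further probe of Abhd5, which lies downstream in the gene, rose as well in the 6 groups but by less, with means of 0.40 to 0.52 against 0.65 to 1.02 for the brighter probe.

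G0s2, the inhibitor of the Pnpla2 product, was called in 1 of the 6 liver groups. Its means with RSG were 0.37 ± 0.43, 0.18 ± 0.33 and 0.14 ± 0.29 (n = 6 each) at the rising doses, and none passed the test, although the first missed it narrowly (adjusted p = 0.051) and passed without replicate 4 (0.52, adjusted p = 0.011). With S compound the means at 28 and 84 µmol/kg were 0.24 ± 0.38 and 0.06 ± 0.44 and did not pass. The 6 mice given 280 µmol/kg of S compound stood at -0.87, -1.33, -0.63, -0.83, -0.63 and 0.38. Thus 5 of 6 mice lay below the pool and 1 above it, and the mean of -0.65 ± 0.56 was 0.636 of the pool (adjusted p = 0.00082).

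Lipe, at low signal in liver, rose with RSG at the 3 doses. The means were 0.25 ± 0.27, 0.47 ± 0.23 and 0.30 ± 0.16 (n = 6 each), or 1.19-fold, 1.39-fold and 1.23-fold the pool (adjusted p = 0.017, 4.7e-05 and 0.0062). The call at 28 µmol/kg was lost without replicate 2 or replicate 3 (means of 0.19 and 0.18, adjusted p = 0.096 and 0.1). With S compound the means were 0.02, 0.19 and 0.07 and none passed (adjusted p = 0.85, 0.075 and 0.49). The second of these passed without replicate 5 (0.24, adjusted p = 0.045). RSG minus S compound was not called at any dose, with intervals of -0.03 to 0.49, 0.02 to 0.54 and -0.03 to 0.49. A further probe of Lipe passed in the same 3 groups (0.36, 0.54 and 0.31) and in no group of S compound.

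Mgll rose in liver in all 6 groups, and the compounds differed at the highest dose. With RSG its values fell in the ranges 0.50 to 0.81 (median 0.58) at 28 µmol/kg, 0.33 to 0.55 (median 0.44) at 84 µmol/kg and -0.33 to 0.45 (median 0.29) at 280 µmol/kg. With S compound the ranges were 0.54 to 0.79 (median 0.66), 0.48 to 1.09 (median 0.87) and 0.72 to 1.59 (median 0.99). The lowest mouse given S compound at 280 µmol/kg lay above the highest mouse given that dose of RSG. The mean folds over the pool were 1.53, 1.35 and 1.15 with RSG and 1.59, 1.77 and 2.12 with S compound. Of these calls, that at 280 µmol/kg RSG was the weakest (0.21 ± 0.31, adjusted p = 0.047). It was lost without replicate 3, 4, 5 or 6 (means of 0.16 to 0.22, adjusted p = 0.066 to 0.18), with scan day or slide as a random block (adjusted p = 0.072 and 0.063) and with no filter on dim probes (0.071), and without replicate 2 the mean was 0.31 (adjusted p = 0.0023). A second probe of Mgll rose in all 6 groups, by 0.30 at that dose (adjusted p = 0.0025).

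Pnpla3 showed the largest means of the set in liver. Its values in liver ran from 2.17 to 3.55, with a median of 2.89, at 28 µmol/kg RSG, from 0.98 to 3.47 with a median of 2.77 at 84 µmol/kg, and from -1.64 to 3.66 with a median of 2.94 at 280 µmol/kg. With S compound the lowest, median and highest values were 2.42, 2.87 and 3.30 at 28 µmol/kg, 2.25, 3.14 and 3.59 at 84 µmol/kg, and 1.25, 3.13 and 3.42 at 280 µmol/kg. All 36 mice but 1 lay above the pool. The mean at 28 µmol/kg was 7.32-fold the pool for RSG (2.87 ± 0.49, SD, n = 6, adjusted p = 2.4e-07) and 7.22-fold for S compound (2.85 ± 0.39, n = 6, adjusted p = 4.8e-07). The mouse below the pool, replicate 2 at 280 µmol/kg RSG, set the spread of its group: the mean of 2.31 ± 1.96 (n = 6) became 3.1 ± 0.37 (n = 5) without it, or 8.58-fold the pool (adjusted p = 7.2e-11). No difference of Pnpla3 between RSG and S compound or between 280 and 28 µmol/kg passed the test in liver, with intervals for RSG minus S compound of -1.13 to 1.17, -1.57 to 0.73 and -1.59 to 0.71 at the rising doses.

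Lipa, of the lysosome, rose in all 6 liver groups, and all 36 mice lay above the pool. Its lowest value was 0.17 and its highest 1.01, both with RSG. The means were 0.66 ± 0.19, 0.51 ± 0.06 and 0.40 ± 0.16 with RSG and 0.53 ± 0.09, 0.51 ± 0.16 and 0.50 ± 0.18 with S compound (n = 6 each), or 1.32-fold to 1.58-fold the pool, with adjusted p from 3.6e-11 to 1e-06.

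**Figure D3:**
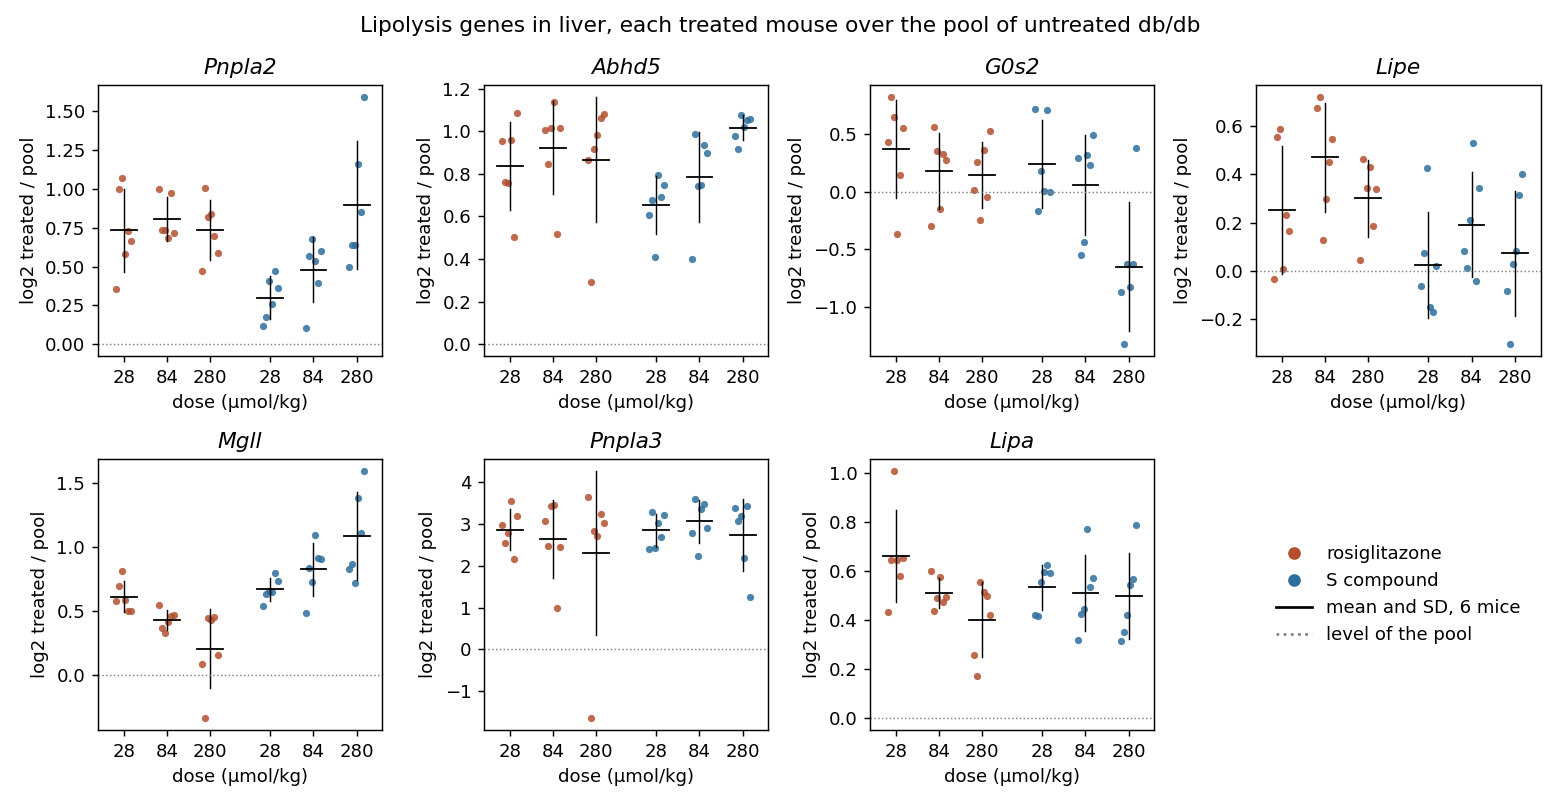
Liver: log2 ratio to the untreated pool (y axis, with its own scale in each panel) of the 7 genes for each mouse, by compound and dose in µmol/kg (x axis), with the mean and SD of 6 mice. Pnpla3 stands near 3 in most mice with replicate 2 of 280 µmol/kg RSG at -1.64, Mgll parts between the compounds as the dose rises, and G0s2 drops below 0 at 280 µmol/kg S compound.

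RSG and S compound were compared at the same dose in 6 pairs, in which the pool cancels. In liver limma called none of the 7 genes at 28 µmol/kg, where 0.868% of sequences were called, nor at 84 µmol/kg, where 1.75% were called. At an unadjusted p under 0.05 were 1 of the 7 (Pnpla2) at 28 µmol/kg and 3 (Pnpla2, Lipe and Mgll) at 84 µmol/kg, beside 13.9% and 14.9% of all sequences. At 280 µmol/kg, where 27.6% of sequences were called, Mgll was lower with RSG and G0s2 was higher. The difference of Mgll was -0.88 (SE 0.12, adjusted p = 2.3e-06), so that the RSG group stood at 0.545 of the S compound group. The difference of G0s2 was 0.80 (SE 0.23, adjusted p = 0.0095), and the groups overlapped through replicate 6 of S compound. Pnpla2 at 84 µmol/kg did not overlap between the groups, yet its difference of 0.33 was not called (interval of 0.05 to 0.61, adjusted p = 0.24). Without replicate 2 of RSG the differences at 280 µmol/kg were -0.77 for Mgll and 0.77 for G0s2 (adjusted p = 7.1e-06 and 0.019). Only scan day 8 held mice of both groups, 2 of each, and there the differences were -1.04 for Mgll and 0.37 for G0s2. With scan day as a fixed block, Mgll was still lower with RSG (-1.03, adjusted p = 9e-04) and the call of G0s2 was lost (0.51, adjusted p = 0.38). At 28 and 84 µmol/kg no scan day held both compounds.

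In liver the doses of S compound differed for 4 of the 7 genes. From 28 to 280 µmol/kg, 3 of the 7 genes were higher and 1 lower, with 28.5% of sequences called. Pnpla2 was higher by 0.60 (SE 0.14, adjusted p = 0.0012), Mgll by 0.41 (SE 0.12, adjusted p = 0.01) and Abhd5 by 0.36 (SE 0.11, adjusted p = 0.015), while G0s2 differed by -0.89 (SE 0.23, adjusted p = 0.0036). For Abhd5 the further probe gave 0.03 (adjusted p = 0.89). All 6 mice at 28 µmol/kg were scanned on day 6 and those at 280 µmol/kg on days 7 and 8, so no within-day difference exists, and with scan day as a fixed block none of the 4 passed (0.36, 0.14, 0.22 and -1.22, adjusted p = 0.43, 0.77, 0.57 and 0.059). For RSG limma called no gene of the set between 280 and 28 µmol/kg, against 0.0115% of sequences called, and 2 of the 7 (Mgll and Lipa) were at an unadjusted p under 0.05, beside 14.2% of all sequences. Mgll gave a difference of -0.41, with groups that did not overlap (interval of -0.66 to -0.16, adjusted p = 0.14). On the scan day that the RSG groups shared (2 mice each) its difference was -0.20.

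The change from 28 to 280 µmol/kg was compared between the compounds. This comparison was chosen after the values had been seen. It was lower with RSG for Mgll, by -0.82 (SE 0.17, adjusted p = 0.0011) and for Pnpla2 by -0.60 (SE 0.19, adjusted p = 0.031), with 17.3% of sequences called. The result for Pnpla2 was not called without replicates 2 or 3 of RSG at 28, 1 or 6 of RSG at 280, 1 of S compound at 28, or 4 or 6 of S compound at 280 µmol/kg (-0.57 to -0.46, adjusted p = 0.052 to 0.063), nor with scan day or slide as a random block (adjusted p = 0.055 and 0.054), nor with its further probe (-0.67, adjusted p = 0.065). With scan day as a fixed block neither gene passed (-0.50 for Mgll and -0.43 for Pnpla2, adjusted p = 0.41 and 0.56). In IAT the same comparison called none of the 7 genes and 0% of sequences, with 1 of the 7 (Abhd5) and 8.47% of all sequences at an unadjusted p under 0.05. G0s2 in liver (0.66, adjusted p = 0.17) passed without replicate 6 of S compound at 280 µmol/kg (0.87, adjusted p = 0.044).

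In IAT the number of genes called changed with the dose, and so did the share of all sequences called. RSG at 28 µmol/kg raised Abhd5 and lowered Lipe, with 46.3% of sequences called. At 84 µmol/kg, with 65% called, it raised Pnpla2, Mgll, Abhd5 and G0s2, and the same 4 genes passed at 280 µmol/kg, with 66.3% called. S compound raised Pnpla3 and Abhd5 at 28 µmol/kg (47% called), Pnpla2, Mgll and Abhd5 at 84 µmol/kg (55.1% called) and all genes but Pnpla3 at 280 µmol/kg (74.1% called). Calls of higher sequences made up 27 to 42% of all tested in these 6 comparisons, the median over the 7 genes was 0.12 to 0.49, and that over all sequences 0.03 to 0.06.

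Pnpla2 was not called in IAT at 28 µmol/kg and rose at the higher doses. With RSG at 28 µmol/kg 5 of 6 mice lay above the pool, and without replicate 5 the mean went from 0.07 to 0.17 and was called (adjusted p = 0.025). With RSG its lowest, median and highest values were -0.46, 0.15 and 0.27 at 28 µmol/kg, 0.37, 0.69 and 1.03 at 84 µmol/kg, and 0.68, 0.86 and 0.95 at 280 µmol/kg. With S compound they were -0.22, -0.03 and 0.17, then 0.23, 0.37 and 0.46, then 0.74, 1.00 and 1.12. The 3 groups of S compound did not overlap. The mean at 280 µmol/kg was 1.81-fold the pool with RSG (0.85 ± 0.10, n = 6, adjusted p = 5.2e-12) and 1.97-fold with S compound (0.98 ± 0.16, n = 6, adjusted p = 1.3e-13).

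Abhd5 showed the largest means of the set in IAT at 84 and 280 µmol/kg. With RSG the values ran from 0.49 to 0.99 (median 0.82) at 28 µmol/kg, from 1.15 to 1.64 (median 1.26) at 84 µmol/kg and from 1.25 to 1.72 (median 1.51) at 280 µmol/kg. With S compound they ran from 0.46 to 0.71 (median 0.58), from 0.71 to 1.15 (median 1.02) and from 1.45 to 1.81 (median 1.60). The 3 groups of S compound did not overlap, and those of RSG overlapped between 84 and 280 µmol/kg only. The mean folds over the pool were 1.71, 2.49 and 2.85 with RSG and 1.49, 1.96 and 3.06 with S compound, with adjusted p from 1.2e-19 to 3e-08. The further probe rose in all 6 groups by 0.47 to 1.41.

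G0s2 rose in IAT, in the direction of Pnpla2 and Abhd5. Its values ran from -0.26 to 0.46 (median 0.23), from 0.23 to 0.62 (median 0.38) and from 0.10 to 0.79 (median 0.53) with the rising doses of RSG, and from -0.11 to 0.47 (median 0.12), from -0.05 to 0.57 (median 0.16) and from 0.25 to 0.60 (median 0.42) with those of S compound. All 12 mice at 280 µmol/kg lay above the pool. The calls were 1.33-fold and 1.40-fold at 84 and 280 µmol/kg RSG (adjusted p = 7e-05 and 4.3e-06) and 1.33-fold at 280 µmol/kg S compound (adjusted p = 4.4e-05). For 84 µmol/kg S compound the mean of 0.18 missed the threshold (adjusted p = 0.062) and passed without replicate 4 or 5 (0.22 and 0.23, adjusted p = 0.039 and 0.033).

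Lipe, at high signal in the IAT pool, stayed close to it. Its 36 values lay between -0.55 and 0.33. At 28 µmol/kg RSG all 6 mice lay below the pool, by a mean of -0.14 ± 0.20 or 0.904 of it (adjusted p = 0.03), and at 280 µmol/kg S compound 5 of 6 lay above it, by 0.12 ± 0.14 or 1.09-fold (adjusted p = 0.044). The second of these calls was lost without replicate 2, 4, 5 or 6 (0.08 to 0.13, adjusted p = 0.056 to 0.21), with no filter on dim probes (adjusted p = 0.052), with slide as a random block (0.067) and when each sample was centred on the median of its sequences (0.06, adjusted p = 0.22). With that centring Lipe was called lower at 28 and 84 µmol/kg S compound (-0.13 and -0.15, adjusted p = 0.021 and 0.0074). The first call was lost with slide as a random block (adjusted p = 0.051). The further probe of Lipe passed in the same 2 groups (-0.16 and 0.18, adjusted p = 0.028 and 0.0057).

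By its brightest probe Mgll, like Pnpla2, was called in IAT at 84 and 280 µmol/kg only. With RSG its values ran from -0.37 to 0.29 (median 0.24), from 0.17 to 0.65 (median 0.50) and from 0.34 to 0.81 (median 0.68) at the rising doses. With S compound they ran from -0.01 to 0.28 (median 0.14), from 0.18 to 0.60 (median 0.37) and from 0.72 to 1.01 (median 0.86). All mice at 280 µmol/kg, of both compounds, lay above every mouse at 28 µmol/kg. The mean there was 1.56-fold the pool with RSG (0.64 ± 0.17, n = 6, adjusted p = 1.7e-09) and 1.81-fold with S compound (0.85 ± 0.13, n = 6, adjusted p = 1.8e-12). At 28 µmol/kg Mgll was not called by its brightest probe (0.12 and 0.15, adjusted p = 0.15 and 0.082), whereas a second probe gave 0.23 and 0.22 and passed (adjusted p = 0.006 and 0.007). The remaining probe was designed on a cDNA in the upstream part of the gene. It was not tested in liver, where it stood above background in 6.944% of channels. In IAT it rose more, by 0.38 to 1.44, and passed at 28 µmol/kg (0.53 with RSG and 0.38 with S compound, adjusted p = 5e-05 and 0.0019). With the mean over probes Mgll passed at that dose as well (0.29 and 0.25, adjusted p = 0.0011 and 0.0043).

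Promoters of the 3 genes that moved together in IAT are shown because PPARγ, the receptor of RSG, is known to bind a direct repeat of the motif AGGTCA with 1 base between the copies. The 250 bases before the RefSeq start of each gene (GRCm38.p6, plus strand, 5′ to 3′, with the first of 2 listed starts for Mgll) were as follows.
Pnpla2, chr7:141454938-141455187: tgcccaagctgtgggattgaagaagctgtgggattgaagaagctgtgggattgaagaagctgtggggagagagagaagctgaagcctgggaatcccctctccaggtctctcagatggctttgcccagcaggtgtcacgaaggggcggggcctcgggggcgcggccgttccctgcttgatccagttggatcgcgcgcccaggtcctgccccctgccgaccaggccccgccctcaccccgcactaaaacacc
Abhd5, chr9:122351366-122351615: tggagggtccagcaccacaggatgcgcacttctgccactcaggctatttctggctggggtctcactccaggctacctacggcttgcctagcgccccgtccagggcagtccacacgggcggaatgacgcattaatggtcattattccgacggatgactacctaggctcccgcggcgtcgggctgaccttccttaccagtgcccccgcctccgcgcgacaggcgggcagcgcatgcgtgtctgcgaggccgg
Mgll, chr6:88724162-88724411: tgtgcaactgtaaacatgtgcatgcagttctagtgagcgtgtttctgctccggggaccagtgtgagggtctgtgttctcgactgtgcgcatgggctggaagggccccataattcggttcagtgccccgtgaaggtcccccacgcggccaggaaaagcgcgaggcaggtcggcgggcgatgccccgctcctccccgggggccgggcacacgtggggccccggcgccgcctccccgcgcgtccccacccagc
The repeat was searched on both strands, with at most 2 mismatches over the 12 letters of the copies, from 250 bases before to 50 after each start. No match was found in the 9 promoters listed for the 7 genes, so no letter is capitalised, and of 32851 promoters of that length 3.86% hold one. This says only that these letters are not in these windows.

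Pnpla3, at high signal in the IAT pool as well, passed the test with S compound at 28 µmol/kg and in no other group, where the 6 mice ran from 0.41 to 1.08 (mean 0.70 ± 0.24, 1.63-fold, adjusted p = 0.0098). With RSG at that dose 4 of 6 mice lay above the pool (mean 0.44 ± 0.56, adjusted p = 0.099), and the mean passed without replicate 3 (0.61, adjusted p = 0.035). With either compound 3 of 6 mice lay above the pool at 280 µmol/kg. Replicate 2 of RSG, the number with the low Pnpla3 in liver, also had the lowest value in IAT at -2.54, and the group mean went from -0.37 ± 1.09 to 0.07 ± 0.29 (n = 5) without it.

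Lipa in IAT showed means between -0.07 and 0.03 in 5 groups, none called. Of the mice given 280 µmol/kg S compound 4 of 6 lay above the pool (0.23 ± 0.36, adjusted p = 0.028), a call lost without replicate 4, 5 or 6 (0.22, 0.12 and 0.18, adjusted p = 0.063, 0.24 and 0.11), with centring (0.17, adjusted p = 0.084) and with normexp (0.18, adjusted p = 0.057).

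Replicate 5 of IAT at 28 µmol/kg RSG bears on several of these values. Without it Pnpla2, Mgll and G0s2 passed the test at that dose with means of 0.17, 0.22 and 0.28 (adjusted p = 0.025, 0.0052 and 0.0052), and Lipe no longer did (-0.06, adjusted p = 0.29), so the number of members called was 4 in place of 2.

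**Figure D4:**
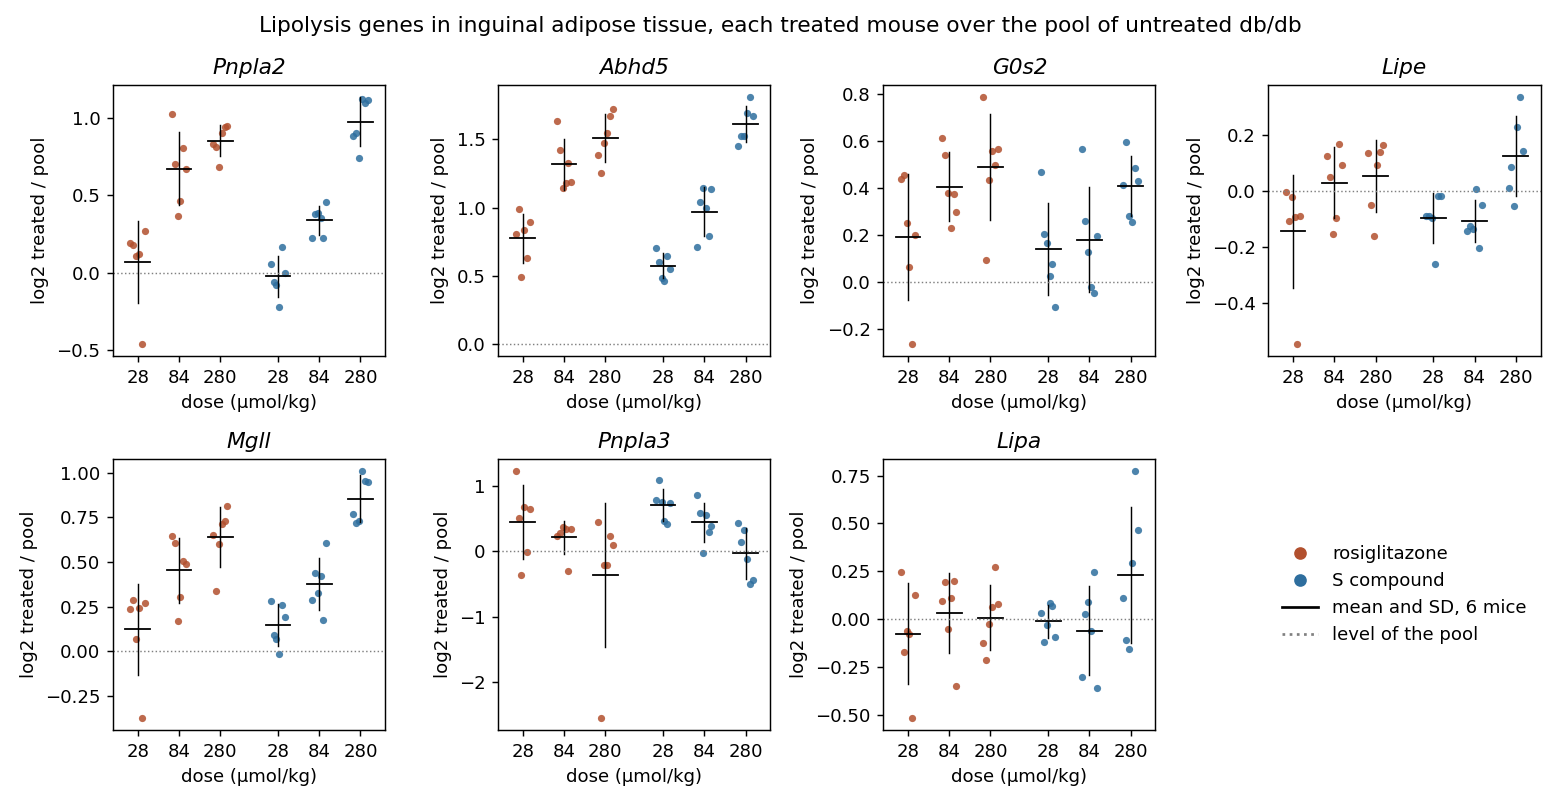
IAT: log2 ratio to the untreated pool (y axis, with its own scale in each panel) of the 7 genes for each mouse, by compound and dose in µmol/kg (x axis), with the mean and SD of 6 mice. Abhd5, Pnpla2 and Mgll lie higher at 280 than at 28 µmol/kg of both compounds, and replicate 2 of 280 µmol/kg RSG stands apart for Pnpla3 at -2.54.

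The test of 280 against 28 µmol/kg gave 3 higher genes for RSG in IAT, with 24.9% of sequences called, and 4 for S compound, with 42.8% called. Pnpla2 was higher by 0.78 with RSG (SE 0.10, adjusted p = 7.5e-07) and by 1.00 with S compound (SE 0.10, adjusted p = 2.6e-09). Abhd5 was higher by 0.74 (SE 0.09, adjusted p = 6.4e-07) and 1.04 (SE 0.09, adjusted p = 3.1e-10). Mgll was higher by 0.52 (SE 0.10, adjusted p = 0.00018) and 0.71 (SE 0.10, adjusted p = 7.6e-07). For these 3 genes the mice of the low and the high dose did not overlap with either compound. How many of all sequences had groups without overlap was not counted, here or in the other comparisons. Lipe was higher with S compound by 0.22 (SE 0.08, adjusted p = 0.022), a call lost without replicate 4 at 28 or replicate 4 or 5 at 280 µmol/kg (0.18 to 0.20, adjusted p = 0.051 to 0.073). Lipe, G0s2 and Pnpla3 with RSG missed the threshold (0.20, 0.30 and -0.81, adjusted p = 0.061, 0.057 and 0.055). Without replicate 2 at 280 µmol/kg RSG, Lipe and G0s2 passed (0.22 and 0.38, adjusted p = 0.041 and 0.011) and the difference of Pnpla3 was -0.38 (adjusted p = 0.18). Other single mice brought calls too: Lipe without replicate 1 at 28 or 3 at 280 µmol/kg (0.22 and 0.24), G0s2 without replicate 1 or 2 at 28 µmol/kg (0.35 each), and Pnpla3 without replicate 3 or 5 at 28 or 1, 5 or 6 at 280 µmol/kg (-0.98 to -0.90). Leaving out replicate 5 at 28 µmol/kg RSG, which stood apart from its group, made the differences of Lipe and G0s2 smaller (0.12 and 0.21, adjusted p = 0.22 and 0.18). With S compound Pnpla3 and G0s2 missed the threshold (-0.73 and 0.27, adjusted p = 0.058 each). They passed without replicate 1 or 3 at 280 µmol/kg for Pnpla3 (-0.82 and -0.80), and without replicate 1 at 28 or 3 or 4 at 280 µmol/kg for G0s2 (0.30 to 0.34). The further probe of Lipe passed with both compounds (0.26 and 0.27, adjusted p = 0.021 and 0.0082). No scan day held mice of both doses. With scan day as a fixed block, which could be fitted for RSG, Mgll did not pass (0.52, adjusted p = 0.11).

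Between the compounds in IAT, limma called none of the 7 genes at 28 µmol/kg, where 0.00636% of sequences were called, nor at 280 µmol/kg, where 1.49% were called, and 1 of the 7 was at an unadjusted p under 0.05 at each dose (Abhd5 and Mgll), beside 4.22% and 20.4% of all sequences. At 84 µmol/kg, with 2.11% called, Abhd5 was higher with RSG by 0.35 (SE 0.09, adjusted p = 0.043), although the groups touched at 1.15. That call was lost without any 1 of 7 of the 12 mice (replicates 1, 2 and 5 of RSG and 1, 2, 4 and 5 of S compound, 0.28 to 0.36, adjusted p = 0.057 to 0.18), with no filter on dim probes (adjusted p = 0.053), with slide as a random block (0.1) and with scan day as a fixed block (0.32, adjusted p = 0.68), and the further probe of Abhd5 gave 0.15 (adjusted p = 0.69). Pnpla2 at that dose gave 0.33 (interval of 0.13 to 0.54, adjusted p = 0.073) and passed without replicate 3 or 4 of RSG (0.40 and 0.38, adjusted p = 0.03 and 0.047). The intervals at 280 µmol/kg for RSG minus S compound were -0.33 to 0.08 for Pnpla2, -0.41 to -0.01 for Mgll and -0.29 to 0.09 for Abhd5.

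Markers of other cell types moved in IAT with the treatments. At 280 µmol/kg, 6 of 8 skeletal muscle markers were lower with RSG and 8 of 8 with S compound, and their summed signal was 32.3 to 584 over all treated mice against 389 to 531 in the pool channel. Of 7 epithelial markers tested, 5 were lower with either compound (3.65 to 98.2 against 49.9 to 65), and of 8 macrophage markers 6 were lower (52.3 to 138 against 107 to 146). Brown adipocyte markers were higher for 5 of 6 with either compound (27.3 to 302 against 25.2 to 36.9), with Ucp1, the uncoupling protein of brown fat, at 3.27 with RSG and 3.36 with S compound. The adipocyte sum was 531 to 1070 against 540 to 769, with Adipoq higher by 0.96 and 1.05 and Cfd lower by -2.04 and -2.58 on the same scale. Endothelial markers ran from 18.1 to 28.9 against 21 to 23.5, and hepatocyte markers from 3.09 to 31.1 against 6.93 to 9.08. These sums in IAT cover every dose. With RSG and S compound at 280 µmol/kg alone, brown adipocyte sums were 93.5 to 202 and 160 to 302 (pool channel 28.5 to 32.7 and 31.1 to 36.9). Macrophage sums there were 55.1 to 84.5 and 52.3 to 102 (124 to 146 and 122 to 145). Epithelial sums were 3.95 to 35.3 and 3.75 to 42.8 (53 to 63.2 and 54.4 to 63), and muscle sums 39.1 to 584 and 32.4 to 155 (389 to 531 and 480 to 508). The part of these lists in the changes of the 7 genes was not tested. In liver the adipocyte sum was 10.3 to 24.2 in the pool channel and 68.6 to 667 in treated mice, with 4 of 6 markers higher at 280 µmol/kg. Among them Cfd stood at 6.75 with RSG and 4.99 with S compound. Adipoq was not called (-0.52 with either compound, adjusted p = 0.12 and 0.098), and Lep was not well above background. Other sums in liver were 1240 to 1800 against 1350 to 1840 for hepatocyte markers, 42.6 to 103 against 52.3 to 63.6 for macrophage, 120 to 279 against 109 to 139 for epithelial, 6.21 to 9.01 against 6.27 to 6.88 for endothelial, 1.01 to 4.1 against 1.06 to 1.3 for brown adipocyte and 0.292 to 1.65 against 0.926 to 1.12 for muscle markers, and their part was not tested.

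The responses of IAT and liver were then compared at the same compound and dose, on 25529 sequences tested in both tissues. At 28 µmol/kg RSG, 5 genes responded less in IAT and none more, with 51.2% of sequences called. At 84 µmol/kg RSG 3 responded less and 1 more, and at 280 µmol/kg 3 less and 2 more, with 60.5% called at each of these doses. For S compound the numbers were 4 less and none more at 28 µmol/kg (43.1% called), the same at 84 µmol/kg (51.9% called), and 2 less and 2 more at 280 µmol/kg (72.9% called). Over all sequences 16.3 to 25.8% were called lower and 26.7 to 47.1% higher in IAT, and the median difference was 0.07 to 0.16.

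Pnpla3 showed the widest gap. Its response was lower in IAT than in liver by -2.43, -2.44 and -2.68 with RSG and by -2.15, -2.62 and -2.78 with S compound (SE 0.46, adjusted p from 3.4e-07 to 0.00013). The mice of the tissues did not overlap in 5 of 6 pairs of groups, the exception being 280 µmol/kg RSG, where replicate 2 of liver reached into the IAT range. Without replicate 2 the difference was -3.03 (adjusted p = 2.6e-12).

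Lipa responded less in IAT in all 6 pairs, by -0.74 to -0.27. The smallest, at 280 µmol/kg S compound (adjusted p = 0.029), was lost without replicate 2, 3 or 6 (-0.26 to -0.20, adjusted p = 0.052 to 0.12). Lipe responded less in IAT at the 3 doses of RSG and at 84 µmol/kg S compound (-0.44 to -0.25). Among these, the difference at 280 µmol/kg RSG was lost without replicate 2, 3, 4 or 6 (-0.26 to -0.20, adjusted p = 0.053 to 0.15), with no filter, normexp, slide as a random block or the mean over probes (adjusted p = 0.052 to 0.064), and that at 84 µmol/kg S compound without replicate 4 (-0.26, adjusted p = 0.062) or with the mean over probes (-0.24, adjusted p = 0.06).

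Abhd5 responded more in IAT at 84 and 280 µmol/kg RSG (0.40 and 0.64, SE 0.10, adjusted p = 0.00097 and 3.4e-07) and at 280 µmol/kg S compound (0.60, adjusted p = 1.1e-06), and the mice of the tissues did not overlap in these pairs. Mgll changed sides with the dose of RSG, from -0.49 at 28 µmol/kg (adjusted p = 0.00022) to 0.02 at 84 (adjusted p = 0.89) and 0.43 at 280 µmol/kg (adjusted p = 7e-04). With S compound Mgll responded less in IAT at 28 and 84 µmol/kg (-0.52 and -0.45, adjusted p = 0.00013 and 0.00064), and at 280 µmol/kg the difference of -0.23 (adjusted p = 0.061) passed without replicate 3 (-0.28, adjusted p = 0.036). Pnpla2 responded less in IAT at 28 µmol/kg of RSG (-0.67, adjusted p = 6.7e-06) and of S compound (-0.32, adjusted p = 0.028), the latter call being lost without replicate 3, 4 or 6 (-0.31 to -0.29, adjusted p = 0.063 to 0.084), and it was not called at the higher doses (-0.14 to 0.12). G0s2 differed at 280 µmol/kg S compound alone, by 1.06 (SE 0.19, adjusted p = 9.5e-07), with the liver below the pool and the IAT above it.

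**Figure D5:**
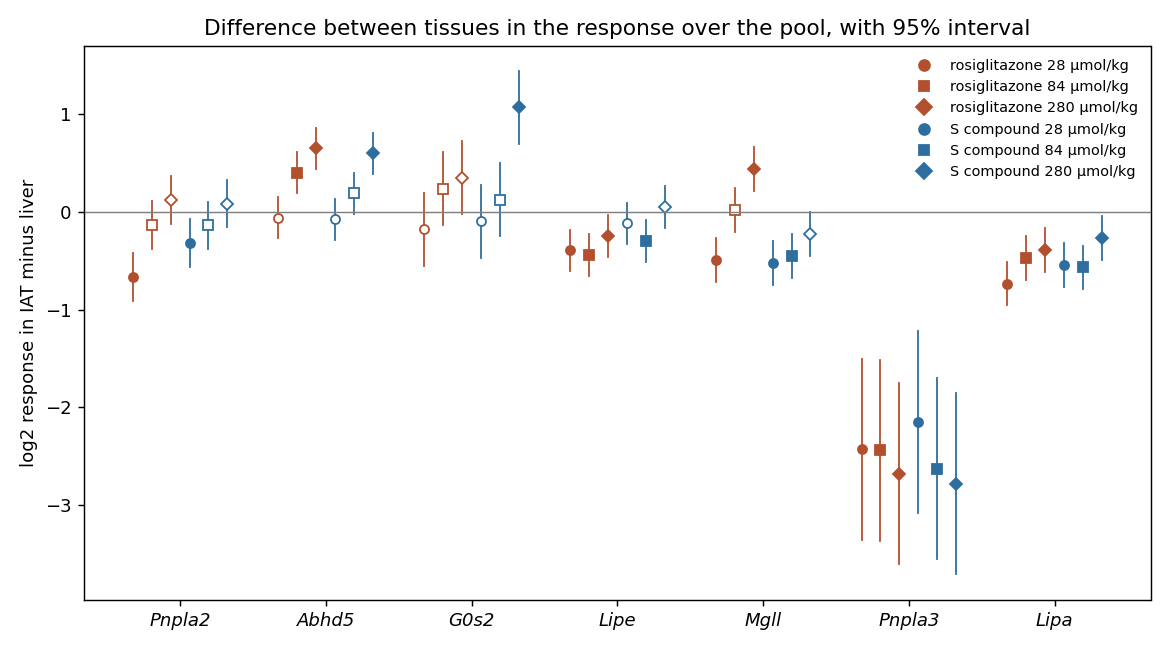
Response of IAT minus response of liver (y axis, difference of log2 ratios to the pool, with 95% interval) for each of the 7 genes (x axis), by compound (colour) and dose (symbol), from the fit of both tissues. Filled markers passed the test and open markers did not. Pnpla3 lies between -2.78 and -2.15 in all 6 comparisons, and Mgll crosses 0 as the dose of RSG rises.

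Genes around the lipolytic route were grouped by role, and those named are the ones with the smallest p at 280 µmol/kg RSG in each list and tissue. Counts of a list are to be read against all sequences, of which 21.4% rose and 29.5% fell in liver and 36.5% rose and 29.8% fell in IAT at 280 µmol/kg RSG, and 27.9%, 37.9%, 42% and 32.1% did so in that order with S compound. Among 12 lipid droplet proteins, 9 rose and 1 fell in liver at 280 µmol/kg RSG (median of 0.79 against -0.03 over all sequences), and 6 rose and 4 fell in IAT (0.25 against 0.03). Cidec and Cidea, which enlarge lipid droplets, rose 14.3-fold and 13.1-fold in liver and 2.50-fold and 11.1-fold in IAT, whereas Cideb fell to 0.775 in liver and Plin4, a droplet coat protein, to 0.549 in IAT. With S compound at 280 µmol/kg the counts were 10 higher and 1 lower in liver and 7 higher and 4 lower in IAT.

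Of the genes that handle released fatty acid and glycerol, 10 were tested in each tissue. RSG at 280 µmol/kg raised 6 and lowered 1 in liver, and raised 7 and lowered 2 in IAT, with medians of 0.62 and 0.81. The fatty acid binding proteins Fabp5 and Fabp4 rose 13.4-fold and 10.5-fold in liver, and Aqp9, the glycerol channel of hepatocytes, fell to 0.888. In IAT the glycerol channel Aqp7 rose 3.04-fold and glycerol kinase (Gk) 4.91-fold, while Aqp3 fell to 0.344. With S compound at that dose 8 rose and 2 fell in liver, and 6 rose and 1 fell in IAT.

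The signal that starts lipolysis runs from adrenergic receptors through cAMP. The list for this route also holds genes that restrain lipolysis, so its counts give no direction of the signal. Of its 20 genes tested in liver, 12 rose and 3 fell at 280 µmol/kg RSG. Of 24 in IAT 10 rose and 7 fell at that dose, where 36.5% of all sequences rose and 29.8% fell. Gnai1, a subunit of the inhibitory G protein, rose 2.42-fold in liver and 2.21-fold in IAT, and Gnai2 rose 1.3-fold in liver. Hcar2, the receptor through which niacin restrains lipolysis, rose 2.28-fold in IAT. Lower were Prkacb, a catalytic subunit of protein kinase A, at 0.795 in liver, and the prostaglandin receptor Ptger3, at 0.502 in IAT. At that dose of S compound 8 rose and 7 fell in liver, and 12 rose and 6 fell in IAT.

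Of the other lipases, 6 of 17 rose and 4 fell in liver at 280 µmol/kg RSG, and 9 of 18 rose and 1 fell in IAT. Lipoprotein lipase (Lpl) rose 6.96-fold in liver and hepatic lipase (Lipc) fell to 0.538. In IAT the carboxylesterase Ces1f and the esterase Aadac rose 3.35-fold and 4.01-fold, and Pnpla6 fell to 0.844. With S compound at that dose 7 rose and 6 fell in liver, and 9 rose and 2 fell in IAT. Of the transcription factors known to act on lipase genes, 3 of 11 rose and 2 fell in liver, namely Rxra and Foxo1 (0.739 and 0.745), and 5 of 12 rose and 2 fell in IAT, with Ppara and Srebf1 at 2.96-fold and 2.19-fold and Irf4 at 0.704, in a tissue where 36.5% of all sequences rose. For S compound at 280 µmol/kg 2 rose and 4 fell in liver, and 5 rose and 2 fell in IAT.

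The lysosome list, to which Lipa is related by place, held more lower than higher genes in IAT. Of 20 genes 5 rose and 15 fell there at 280 µmol/kg RSG (median -0.27), with Lamp2 at 0.647 and Atp6v1h higher at 1.25-fold. In liver 8 rose and 8 fell (median 0.01), with Sort1 and Ctsd at 3.73-fold and 1.61-fold and Lamp2 at 0.824. With S compound at that dose the counts were 9 and 9 in liver and 5 and 13 in IAT.

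How the members varied with each other was described across the 36 mice of a tissue, which share the pool, the doses and the arrays, so that no p is given. The dose groups form part of each r, so for pairs of members it is also given over deviations from the group means. In IAT Pearson r was 0.951 for Pnpla2 and Abhd5, 0.938 for Pnpla2 and Mgll and 0.902 for Mgll and Abhd5, 0.682, 0.875 and 0.761 within groups, and 0.97, 0.949 and 0.934 without the 2 samples that stood apart (n = 34). In liver the same pairs had r of 0.253, 0.245 and 0.288, -0.137, 0.589 and 0.421 within groups, and 0.383, 0.393 and 0.1 without replicate 2 of 280 µmol/kg RSG (n = 35). For Pnpla2 and Pnpla3 r was -0.448 in liver (-0.519 within groups and -0.482 without the sample apart) and -0.461 in IAT, where it was 0.0127 within groups and -0.662 without the samples apart. The nearest genes outside the set follow, by r over all 36 mice. They were not computed without the samples that stood apart. For Pnpla3 these include the lowest values in liver and IAT (-1.64 and -2.54), so how far its nearest genes rest on them is not known. Among 13945 genes in liver, Pnpla3 was most like Gpam (r = 0.912), Acacb (0.911) and Acly (0.895). Gpam and Acly encode enzymes of triglyceride and fatty acid synthesis, and Acacb encodes an acetyl-CoA carboxylase. Mgll was most like Decr1 (0.938), an enzyme of fatty acid oxidation, Aldh3a2 (0.926) and Krtap9-1 (0.907). Pnpla2 in liver was most like Gpat3 (0.941), an acyltransferase of triglyceride synthesis, Eps8 (0.902) and Plcl2 (0.887), and Abhd5 like Pgs1 (0.881), Pgp (0.863) and Tex19.1 (0.844). Among 15890 genes in IAT, Pnpla2 was most like the peroxisomal import factor Pex19 (0.983), Arxes2 (0.979) and Sod1 (0.967), Mgll like the peroxisomal enzymes Hsd17b4 (0.971) and Cat (0.96) and like Chpt1 (0.964), and Abhd5 like Slc25a5 (0.978), Lpcat3 (0.975) and Ephx2 (0.973). The closest genes to Pnpla3 in IAT were Trhde, Phlda3 and Lrrk2 (0.925 to 0.934). Lipe was most like Slc12a7, Sbno2 and Cabp4 in liver (0.735 to 0.748) and Mtmr2, Vkorc1l1 and Marchf2 in IAT (0.915 to 0.936). For G0s2 they were Zbtb37, Naa80 and Klf10 in liver (0.78 to 0.887) and Hagh, Romo1 and Etnk1 in IAT (0.887 to 0.898), and for Lipa they were Cmpk1, Sgta and Fez2 in liver (0.801 to 0.826) and Igf2bp2, Tmem251 and Lpxn in IAT (0.813 to 0.836).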

How the data were processed

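Liver and IAT RNA of treated mice was hybridised by the authors with pool RNA on 2-colour Agilent arrays, 168 in all (144 of mice, 24 of technical repeats), with dyes exchanged within each pair. The deposited scanner files were written by Feature Extraction 9.5.3.1 per the file headers (9.5 in the submitters' processing notes), with local background subtraction and Lowess dye normalisation. Their log10 ratio of red over green, as deposited, was used here, multiplied to the log2 scale and turned so that each value is treated mouse over pool. The deposited processed intensity of each channel served for levels, as log2 of the signal over the 75th percentile of the array, and the intensity of mean and background signals for the normexp alternative. The series table deposited by the authors, log10 ratios with a median of 0 in 71 of 84 columns and of at most 0.0529 on the log2 scale in the others, which run in the direction of treated over pool, was an alternative, and 0 columns belonged to other series. The arrays give no read depth, and their number limits the precision.

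Control spots and outlier spots (63 to 320 per array) were left out, and spots of a probe and the 2 arrays of a sample were averaged. A sequence was tested where, in some group, either channel exceeded background clearly (the scanner software's own call) on 50% of arrays or more (26024 of 41174 in liver, 31423 in IAT). In R 4.3.3, limma 3.58.1 (with the package data.table, version 1.17.8, for reading) was used to fit 6 group means over 36 samples per tissue, or 12 over both tissues, with eBayes and Benjamini-Hochberg adjustment over all sequences. Figures were drawn with matplotlib 3.10.9. The scripts were tested on simulated data. Each pool is 1 control sample, and the comparisons with it in a tissue share it. Whether equal replicate numbers in liver and IAT are 1 mouse is not stated. The p-values measure the spread between mice of a group.

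The members and lists were chosen with earlier results of these data known. Genes named beyond the members are, per list and tissue, the 2 with the smallest p for 280 µmol/kg RSG and the one with the smallest p against the majority of the list, and per member and tissue the 3 of highest correlation. A gene of the lysosome list that this rule names is not reported here. A name is carried by 30107 of the probes. Alternatives were the study's thresholds, normexp with loess, the series table, no filter, a stricter filter, the mean over probes, weights from the error of the log ratio, scan day or slide as a block, a replicate block, centring and leaving out each mouse. Same-numbered liver and IAT samples deviated together, with every pair over 0.1, at 28 µmol/kg RSG (0.11 to 0.232) and 280 µmol/kg RSG (0.104 to 0.29), and with the replicate block 5 members were called in each of these comparisons of tissues, as without it.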

Additional observations from a re-analysis of the deposited data

Results flagged for a closer look

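In 8 of 84 cases, each 1 gene in 1 group of 6 mice, the gap of 1 mouse to the nearest other was large against the range of the group. Chance gives about 1 in 20 for a single case. The cases share mice across genes and are not independent, so their number cannot be set against that rate. Replicate 5 of IAT at 28 µmol/kg RSG was lowest for Pnpla2 (-0.462, the next mouse at 0.109), Lipe (-0.5485, next -0.107) and Mgll (-0.3734, next 0.0691). Replicate 2 at 280 µmol/kg RSG was lowest for Pnpla3 in liver (-1.6422, next 2.716) and in IAT (-2.5403, next -0.2173) and for Abhd5 in liver (0.2905, next 0.8634). The other 2 were Pnpla3 in IAT in replicate 5 at 84 µmol/kg RSG (-0.2982, next 0.228) and Lipe in IAT in replicate 4 at 28 µmol/kg S compound (-0.2641, next -0.0995).

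The response of IAT differed from that of liver by limma's test of the difference in 26 of 42 cases, 21 lower and 5 higher in IAT. Of all sequences, 43.1 to 72.9% were called in these comparisons, with 16.3 to 25.8% lower and 26.7 to 47.1% higher in IAT. At 28 µmol/kg RSG the differences were -0.6657 for Pnpla2, -2.4269 for Pnpla3, -0.397 for Lipe, -0.4914 for Mgll and -0.7356 for Lipa. At 84 µmol/kg RSG they were -2.4362 for Pnpla3, -0.4414 for Lipe, 0.3953 for Abhd5 and -0.4775 for Lipa. At 280 µmol/kg RSG they were -2.6776 for Pnpla3, -0.2487 for Lipe, 0.4337 for Mgll, 0.6441 for Abhd5 and -0.3927 for Lipa. With S compound at 28 µmol/kg Pnpla2 gave -0.3209, Pnpla3 -2.1488, Mgll -0.5217 and Lipa -0.5432. At its dose of 84 µmol/kg Pnpla3 gave -2.6232, Lipe -0.3006, Mgll -0.4494 and Lipa -0.5702, and at 280 µmol/kg Pnpla3 gave -2.7806, Abhd5 0.5968, G0s2 1.0626 and Lipa -0.2667.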

How the results depend on the processing

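No called value of a member changed direction in any alternative that was run. Over the settings other than leaving out a mouse, 2240 values of members kept their direction and side of the threshold, 50 lost a call, 39 gained one and 44 uncalled values changed sign; leaving out each mouse gave 1788, 42, 28 and 74. The cause of the moves below was not tested.

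Numbers of members called moved by over 1.5 times as follows. With the study's thresholds (p under 0.001 and fold of at least 1.3) they were 1 in place of 2 in IAT at 28 µmol/kg of RSG and of S compound, 1 in place of 3 in IAT at 84 µmol/kg S compound, 1 in place of 2 for RSG against S compound in liver at 280 µmol/kg, 2 in place of 4 for the doses of S compound in liver and 1 in place of 2 for the change with dose between compounds in liver. For RSG against S compound in IAT at 84 µmol/kg the number was 0 in place of 1 with those thresholds, no filter, the mean over probes, slide as a random block or scan day as a fixed block, and 2 with scan day as a random block or centring. For the doses of RSG in IAT it was 5 in place of 3 with normexp or the replicate block and 6 with scan day as a random block or centring, an alternative chosen after seeing the data. With scan day as a random block IAT at 84 µmol/kg S compound had 5 in place of 3, with slide as a random block IAT at 28 µmol/kg RSG had 1 in place of 2, and either gave 1 in place of 2 for the change with dose between compounds in liver. With scan day as a fixed block the liver numbers were 1 in place of 2 for RSG against S compound at 280 µmol/kg, 0 in place of 4 for the doses of S compound and 0 in place of 2 for the change with dose. That block could not be fitted against the pool, between tissues or where IAT at 280 µmol/kg S compound enters. Leaving out each mouse gave 2 to 4 members for IAT at 28 µmol/kg RSG, 3 to 5 for the doses of RSG in IAT, 0 to 2 for RSG against S compound in IAT at 84 µmol/kg and 1 to 2 for the change with dose in liver.

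With the study's thresholds, numbers of sequences called moved by over 1.5 times in 29 of 30 comparisons. Against the pool they went from 15222 to 5079, 14696 to 4715 and 13245 to 3637 in liver with the doses of RSG, from 13344 to 3514, 14127 to 4208 and 17128 to 7246 with those of S compound, and in IAT from 14535 to 4037, 20440 to 7745, 20833 to 8873, 14763 to 4094, 17306 to 5293 and 23291 to 11762. RSG against S compound went from 456 to 236 and 7189 to 2144 in liver at 84 and 280 µmol/kg, and from 2 to 29, 664 to 284 and 467 to 299 in IAT. The doses went from 3 to 95 and 7420 to 2278 in liver and 7818 to 2629 and 13434 to 5115 in IAT, the tissues from 13065 to 5221, 15451 to 7276, 15457 to 7592, 10991 to 3965, 13256 to 5290 and 18607 to 11222, and the change with dose from 4510 to 1786 in liver and 0 to 89 in IAT. For RSG against S compound at 28 µmol/kg in liver (226) other settings gave 97 with normexp, 58 and 99 with scan day and slide as random blocks, 0 with scan day fixed and 65 to 289 without a mouse, and in IAT (2) they gave 0 to 8. At the middle dose liver (456) gave 275, 288 and 0 with these blocks and 259 to 515 without a mouse, and IAT (664) gave 1782, 252 and 0 and 221 to 840. At the high dose liver gave 3008 with scan day fixed, and IAT (467) gave 253 with normexp, 265 with the mean over probes, 3591 and 43 with scan day and slide as random blocks, 790 with the replicate block, 703 centred, and 43 without replicate 4 of S compound to 1323 without replicate 5 of RSG. The doses of RSG in liver (3) gave 0 to 31. Scan day fixed gave 2424 and 1953 for the doses of S compound in liver and RSG in IAT and 228 for the change with dose in liver, and scan day as a random block gave 410 for that change in IAT.

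Centring moved the median of all sequences by over 0.1 for the tissues at 280 µmol/kg S compound only (by -0.1094, and -0.1234 with normexp). Higher calls went from 59.5 to 47.3% and 59.4 to 48.2% in IAT at 28 and 84 µmol/kg S compound with normexp. For the tissues they went from 62.1 to 49.4% and 64.7 to 52% with normexp at those doses, and with centring from 63 to 50.1% and 65.6 to 53.7% (RSG), from 62.1 to 48.3%, 64.7 to 51.3% and 64.6 to 54% (S compound), and from 54.1 to 44% for the change with dose in liver. The replicate block moved no other number of members by over 1.5 times; same-numbered samples of the other 4 comparisons of tissues had pairs under 0.1, and 2 to 6 of 6 samples of each comparison were most like their own number. Signal over background had a median of 1.8 in liver and 3.64 in IAT, which limits dim genes such as Lipe in liver.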

Other observations

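Of the 84 columns of the authors' series table, 80 were most like the arrays of their own sample. In IAT at 280 µmol/kg S compound, the columns of replicates 4, 5 and 6 were most like the arrays of replicates 6, 4 and 5, which leaves group means as they are. The column of IAT replicate 6 at 84 µmol/kg S compound matched no sample's arrays and was left out of that alternative.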
